A study of Mus with 3 samples.

Results

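The 33 genes described here encode the enzymes of cholesterol and fatty acid synthesis in the mouse, with the proteins that control that synthesis and those that move sterols within and out of the cell. They were listed by name from 32285 genes counted, and the list was drawn up with earlier results of these same cells known. The measured values therefore describe the listed genes and test nothing. By role, 18 genes act in sterol synthesis, 7 in fatty acid synthesis and desaturation, 5 in the control of both, 1 in sterol transport (Stard4) and 2 in sterol efflux (Abca1 and Abcg1). All 33 were found in the gene list of the file and in the RefSeq annotation of GRCm38.

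Cholesterol is built from acetyl-CoA through the mevalonate pathway to squalene, which is closed to lanosterol and then trimmed to cholesterol. The transcription factor SREBP2 (Srebf2) switches on nearly every enzyme of that route when the sterol content of the endoplasmic reticulum is low. SCAP (Scap) escorts the SREBP proteins to the Golgi, and the INSIG proteins (Insig1 and Insig2) hold them back when sterols are plentiful. SREBP1 (Srebf1) drives fatty acid genes such as Fasn and Scd1. Liver X receptors respond to oxysterols and switch on the export pumps Abca1 and Abcg1 and the E3 ligase Mylip. Activated T cells raise both syntheses while they grow, because each division needs new membrane.

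The study asked how the retinoic acid receptor RARα in T cells shapes tumour-infiltrating cytotoxic T lymphocytes (CTLs). MC38, a mouse colon carcinoma line, was grown in WT mice, in RARα-KO mice (dLck-Cre crossed to Rara L/L, with deletion in T cells) and in RARα-TG mice (CD2-Rara, with Rara driven in T cells). Throughout, WT, RARα-KO and RARα-TG name the host mouse of a cell, and MC38 was the same implanted line in every host. Both alterations were directed to T cells. The names therefore do not mean that Rara was altered in a macrophage, dendritic, MC38 or stromal cell. Tumours were taken on day 16. Sorted CD45.2+ CD3+ T cells (30000 per genotype) and total tumour cells (10000 per genotype) were stained with 1 hashtag antibody per genotype, pooled and run as 1 10x Genomics 5′ library with T cell receptor amplification. The control mice of the study were C57BL/6 or dLck-Cre, and which of them served here was not given. The sample labels name spleen and naive CD8 T cells, whereas the protocol describes tumours and the cells expressed tumour, macrophage and T cell genes. How many mice stood behind a hashtag is also unknown. Each genotype is thus 1 sample with no replicate check, and genotype cannot be told apart from the mice or tumours that carried it.

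The library held 5585 cells with a median of 4823 unique molecular identifiers (UMIs, counted transcript molecules) and 1829 genes. A hashtag was assigned to 1927 WT, 2103 RARα-KO and 895 RARα-TG cells. CTLs (cells of T cell clusters with a Cd8a UMI and no Cd4 UMI) numbered 841 WT, 1178 RARα-KO and 113 RARα-TG. CD4 T cells (a Cd4 UMI and no Cd8a or Cd8b1 UMI) numbered 217, 245 and 262 in the same order. Macrophage-like cells numbered 77, 128 and 35. The cells called MC38 or stromal numbered 273, 129 and 19, and expressed Col3a1 and Sparc with 15 to 17 of 20 listed markers seen, but Krt18 was at 0 UMIs in every genotype, so tumour cells and fibroblasts cannot be told apart in that class. Rara itself stood at 85.4 CPM (UMIs per 1000000 UMIs of the same cells) in WT CTLs, with 78.5 CPM in RARα-KO CTLs and 191 CPM in RARα-TG CTLs. The deletion removes part of the gene, so its transcript remains countable and the RARα-KO value checks nothing.

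Levels are given as CPM from UMIs summed over the cells of a class and genotype, with exact Poisson 95% intervals. Differences are log2 ratios of CPM with exact binomial 95% intervals. Both cover counting error only, not the spread between animals. A gene was compared when it had at least 50 UMIs over both sides and was called higher or lower when the ratio reached 1.5-fold with an interval that left out 0. Every RARα-KO and RARα-TG comparison uses the same WT cells.

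Across cell classes, MC38 or stromal cells carried the highest level of the sterol synthesis genes and macrophages the highest level of the efflux genes. Summed over its 18 genes, sterol synthesis stood at 567 CPM (547 to 587) in WT CTLs, 655 CPM in WT CD4 T cells, 491 CPM in WT macrophages and 2141 CPM in WT MC38 or stromal cells. The RARα-KO cells stood lower in each of these classes, at 383 CPM (369 to 396), 375 CPM, 208 CPM and 1045 CPM in the same order. RARα-TG cells gave 655 CPM (592 to 723), 674 CPM, 821 CPM and 1481 CPM. RARα-KO cells were therefore the lowest of the 3 genotypes in all 4 classes, while RARα-TG cells lay above WT in CTLs and macrophages, close to WT in CD4 T cells and below WT in MC38 or stromal cells. Barcodes without a cell held 167 sterol synthesis UMIs of 270078, or 618 CPM, a level above the CTLs and macrophages of both WT and RARα-KO tumours and above RARα-KO CD4 T cells, and below WT CD4 T cells. Free RNA comes from the same pool for all genotypes of this library, and how much of it each class and genotype held was not tested. Col3a1, an abundant collagen gene of the MC38 or stromal cells, was at 3 UMIs in WT, 3 UMIs in RARα-KO and 1 UMI in RARα-TG CTLs, at most 0.10% of its CPM in MC38 or stromal cells.

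**Figure D1:**
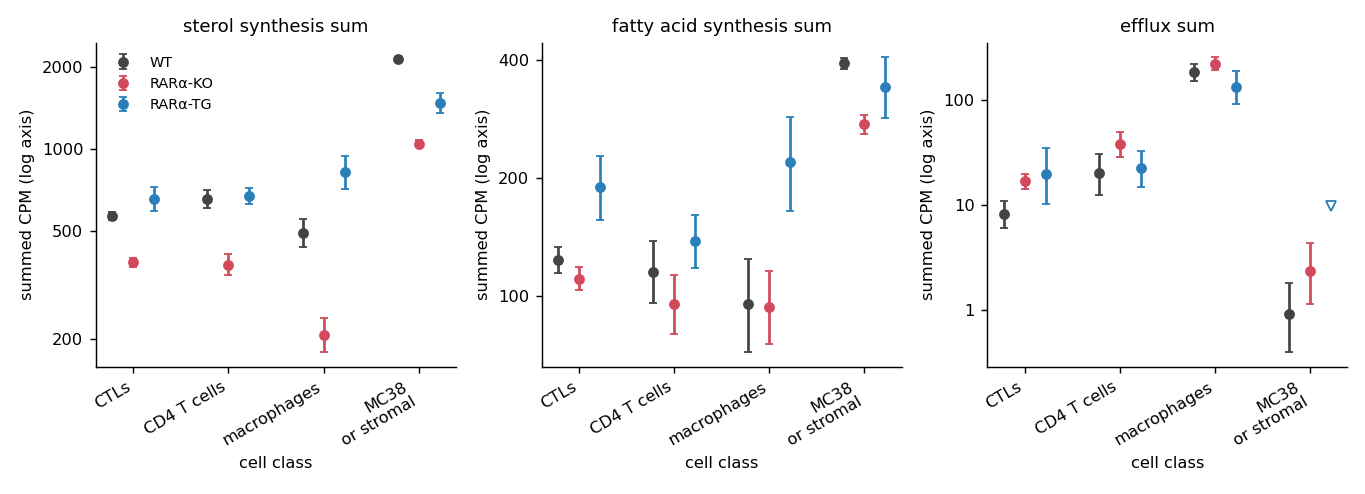
Summed level in CPM (log axis) of the 18 sterol synthesis, 7 fatty acid synthesis and 2 efflux genes in 4 cell classes, with 1 point per genotype and exact Poisson 95% intervals. The sterol sum was lowest in RARα-KO cells in each class, and the open triangle marks the upper limit where no efflux UMI was counted among 19 RARα-TG MC38 or stromal cells.

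The fatty acid synthesis sum was 123, 111 and 189 CPM in WT, RARα-KO and RARα-TG CTLs. Its RARα-KO log2 ratio to WT was -0.16 (-0.30 to -0.01) in CTLs, -0.27 (-0.64 to 0.10) in CD4 T cells and -0.03 (-0.53 to 0.49) in macrophages. In MC38 or stromal cells the sum was 392, 274 and 342 CPM, with a RARα-KO ratio of -0.52 (-0.61 to -0.42). Each of these ratios lay closer to 0 than that of the sterol sum in the same class. The efflux sum ran the other way in T cells, at 8.2, 16.8 and 19.9 CPM in WT, RARα-KO and RARα-TG CTLs. In macrophages it was 184, 222 and 134 CPM. The map of all 33 genes shows these blocks, with Scd1 and Fads2 near 0 in T cells, and Abca1 high in macrophages.

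**Figure D2:**
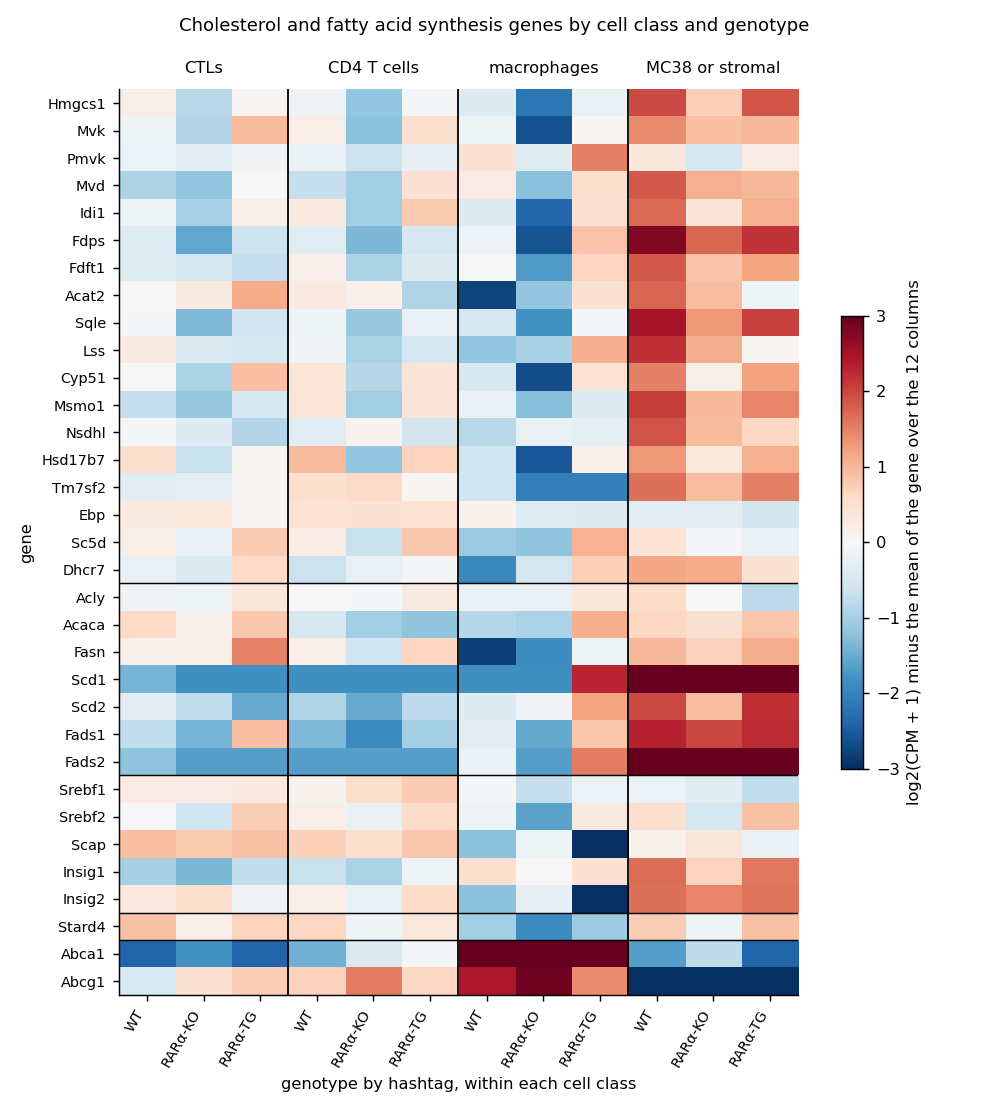
Each of the 33 genes (vertical) in the 4 cell classes and 3 genotypes (horizontal), coloured by log2(CPM + 1) minus the gene's mean over the 12 columns, with lines between the roles. Sterol synthesis genes were high in MC38 or stromal cells and low in RARα-KO macrophages, and the 2 efflux genes at the bottom were high in macrophages.

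In CTLs, 8 of the 18 sterol synthesis genes were called lower in RARα-KO than in WT cells, and 0 were called higher. The sterol sum was 1.48-fold lower, a log2 ratio of -0.57 (-0.64 to -0.50). Of the 33 genes, 29 could be compared, of which 11 were lower and 1 was higher. Among all 9285 genes compared in CTLs, 4.35% were called lower and 4.7% higher. The median log2 ratio was -0.42 over the listed genes and 0.01 over all genes compared.

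Fdps, which makes farnesyl diphosphate and lies on chromosome 3 from 89093588 to 89101967 (GRCm38), stood at 74.5, 31.8 and 61.4 CPM in WT, RARα-KO and RARα-TG CTLs. The RARα-KO value was 2.34-fold below WT, with a log2 ratio of -1.23 (-1.46 to -0.999) from 258 and 418 UMIs. Hmgcs1, the enzyme that condenses acetoacetyl-CoA to HMG-CoA (chromosome 13, 119690351 to 119708260), gave 65.1, 31.4 and 59.7 CPM in the same order, with a log2 ratio of -1.05 (-1.29 to -0.82). For both genes the WT and RARα-TG intervals overlapped and the RARα-KO level lay below them. Cyp51, the lanosterol demethylase (chromosome 5, 4080674 to 4104697), gave 74.0, 37.0 and 136 CPM, a log2 ratio of -0.999 (-1.22 to -0.78). Cyp51 was therefore ordered by genotype, with RARα-KO lowest and RARα-TG highest. Sqle, which epoxidizes squalene, had the largest ratio of the list at -1.35 (-1.77 to -0.94), with 24.3, 9.5 and 16.6 CPM in WT, RARα-KO and RARα-TG cells.

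Hsd17b7, a ketosteroid reductase of the late pathway, followed at 16.0 CPM in WT and 6.5 CPM in RARα-KO CTLs, a log2 ratio of -1.29 (-1.81 to -0.79). Idi1, the isopentenyl diphosphate isomerase, gave -0.86 (-1.15 to -0.59). Mvk, the mevalonate kinase, gave -0.86 (-1.44 to -0.28) on 106 UMIs, and Lss, which closes squalene epoxide to lanosterol, gave -0.84 (-1.60 to -0.10) on 65 UMIs. The sparse counts of Mvk and Lss leave intervals that reach close to 0. Beyond the 8 largest ratios, the 3 remaining lower genes were Fads1, Stard4 and Srebf2. Srebf2, which encodes SREBP2 itself, stood at 64.4, 41.6 and 108 CPM in WT, RARα-KO and RARα-TG CTLs, and its RARα-KO log2 ratio was -0.63 (-0.85 to -0.41).

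Other genes of the same route did not pass. Ebp, the sterol isomerase and the sterol gene with the most UMIs in CTLs, gave 90.2 CPM in WT and 93.3 CPM in RARα-KO cells, a log2 ratio of 0.05 (-0.12 to 0.21), an interval that does not reach 1.5-fold in either direction. Acly and Fasn, which make cytosolic acetyl-CoA and palmitate, gave -0.05 and 0.04. Srebf1 gave 0.02. Pmvk, Fdft1 and Acat2 were at -0.13, -0.19 and 0.29. Without Ebp the sterol sum of RARα-KO CTLs was at -0.72, so the gene with the most UMIs pulled the sum towards 0. Ebp, Pmvk, Fdft1 and Acat2 are named here after their values were seen.

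The only listed gene called higher in RARα-KO CTLs was Abcg1, the pump that exports cholesterol to high-density lipoprotein. Its level was 8.2 CPM in WT CTLs (46 UMIs) and 16.3 CPM in RARα-KO CTLs (132 UMIs), and RARα-TG CTLs had 19.9 CPM (12 UMIs). The RARα-KO log2 ratio was 0.99 (0.50 to 1.51). Summed over all CTLs, Abcg1 was thus higher than WT in both altered genotypes. Within T cell clusters with at least 20 cells of both genotypes, the efflux ratio was negative in 2 of 10 for RARα-KO and in 2 of 6 for RARα-TG. Its interval lay above 0 in 1 of those 10 and 0 of those 6. Among CTLs whose clonotype had 1 cell, the efflux sum was 21.0, 38.4 and 24.7 CPM in WT, RARα-KO and RARα-TG. Abca1 was at 0 UMIs in WT and RARα-TG CTLs and at 4 UMIs in RARα-KO CTLs, too few to compare.

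**Figure D3:**
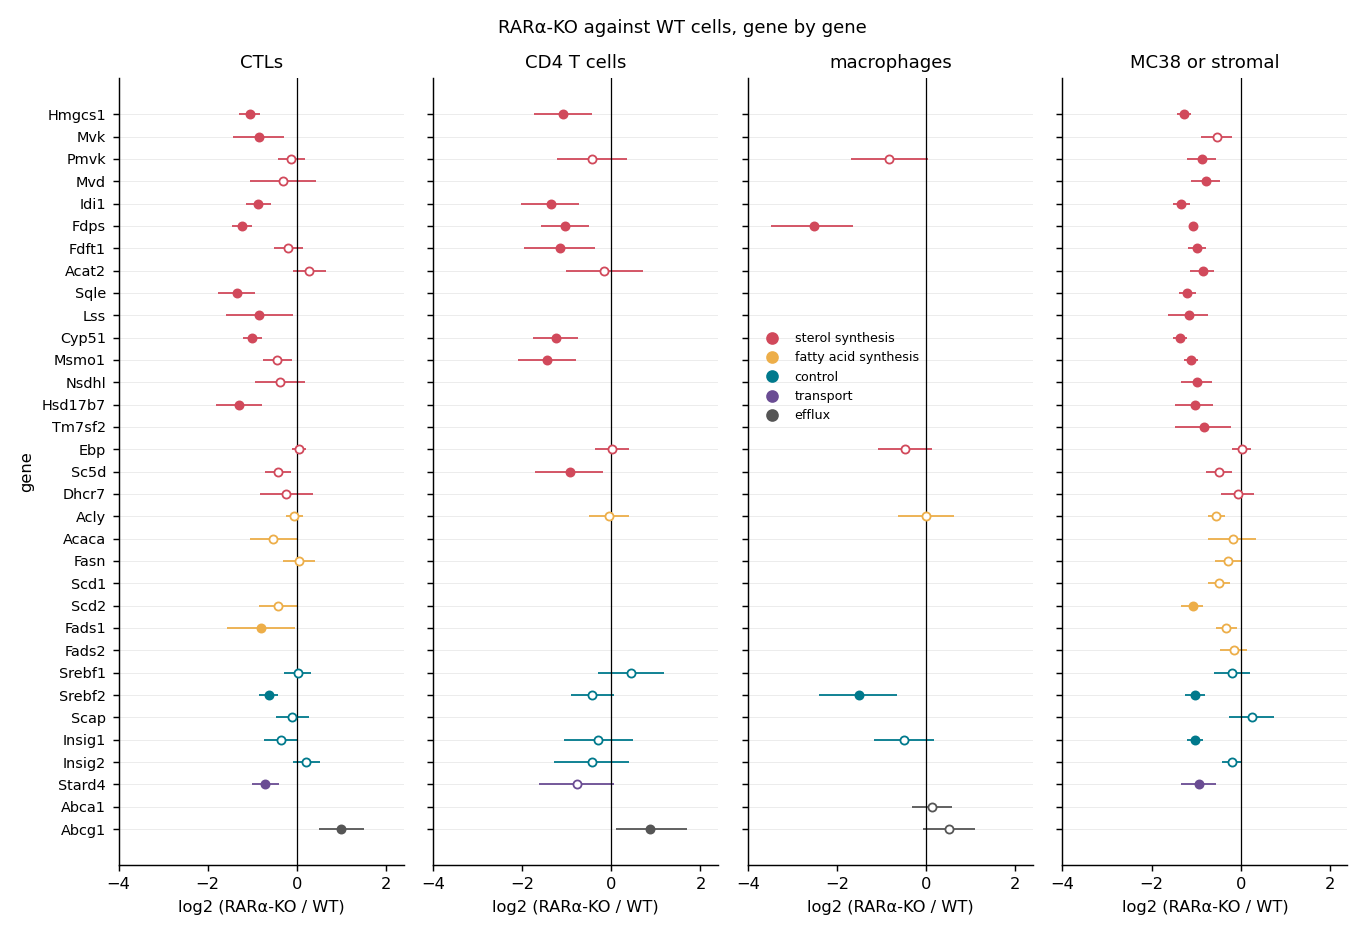
Log2 ratio of RARα-KO to WT cells for each listed gene with at least 50 UMIs in 4 cell classes, with exact binomial 95% intervals. Filled points passed 1.5-fold with an interval that leaves out 0, as Fdps did in all 4 panels, and open points such as Ebp did not.

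CD4 T cells of RARα-KO tumours also held less sterol synthesis RNA. The sterol sum was 1.75-fold lower, with a log2 ratio of -0.80 (-0.97 to -0.64). Of 17 genes compared, 7 were lower and 1 was higher, against 5.39% lower and 3.35% higher among all 5643 genes compared. The median was -0.45 over the listed genes and -0.04 over all genes compared. Msmo1, the sterol methyl oxidase, had the largest ratio and stood at 61.5, 22.7 and 62.8 CPM in WT, RARα-KO and RARα-TG CD4 T cells, a log2 ratio of -1.44 (-2.10 to -0.80). Idi1 stood at 58.6, 22.7 and 83.5 CPM, and Cyp51 at 94.2, 39.6 and 95.05 CPM. In each of these genes the RARα-KO cells were the low group while WT and RARα-TG cells lay close together or RARα-TG was above. The other lower genes were Fdft1 (-1.15), Hmgcs1 (-1.08), Fdps (-1.03) and Sc5d (-0.94). Abcg1 was higher at 35.2 CPM against 19.2 CPM in WT, a log2 ratio of 0.87 (0.09 to 1.70), and Ebp was again level at 0.01.

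Splitting the CD4 T cells by a Foxp3 UMI, the marker of regulatory T cells, gave unequal ratios. Among CD4 T cells without a Foxp3 UMI (97 WT, 166 RARα-KO and 112 RARα-TG cells), the sterol sum was 769, 334 and 707 CPM, with a RARα-KO log2 ratio of -1.20 (-1.43 to -0.97). Among CD4 T cells with a Foxp3 UMI (120, 79 and 150 cells), it was 572, 450 and 652 CPM, with a ratio of -0.34 (-0.60 to -0.10). The order of these subsets differed by genotype: cells with a Foxp3 UMI stood below the others in WT, at -0.43 (-0.65 to -0.21), and above them in RARα-KO, at 0.43 (0.17 to 0.69). Among the cells without a Foxp3 UMI, Hmgcs1 stood at 81.6 CPM in WT and 17.1 CPM in RARα-KO cells (-2.25), and Fdps at 83.9 and 20.6 CPM (-2.03). Neither gene was called lower among cells with a Foxp3 UMI. Fdps stood there at 68.4 and 65.5 CPM, a ratio of -0.06 (-0.78 to 0.64), with an interval that does not leave out a 1.5-fold difference. Hmgcs1 stood at 31.7 and 38.9 CPM on 19 UMIs in each genotype, too few to compare. Cyp51 (-1.07) and Msmo1 (-0.94) were lower in that subset. A missing Foxp3 UMI does not show that a cell lacked Foxp3.

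Cells outside the T cell lineage, where the genotype is that of the host mouse, differed as well. In MC38 or stromal cells the sterol sum was 2.05-fold lower in RARα-KO than in WT tumours, with a log2 ratio of -1.03 (-1.08 to -0.99). Of 31 genes compared, 18 were lower and 0 were higher, against 2.26% lower and 3.94% higher among all 9922 genes compared. The median was -0.85 over the listed genes and 0.01 over all genes compared. Of the 18 sterol synthesis genes, 14 were lower, and the median per cell was 1405 CPM in WT and 464 CPM in RARα-KO cells, with 19.4% of RARα-KO cells above the WT median.

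Cyp51 had the largest ratio there, at 211, 82.3 and 168 CPM in WT, RARα-KO and RARα-TG cells, a log2 ratio of -1.36 (-1.53 to -1.19). Fdps, the listed gene with the most UMIs in these cells, gave 663, 317 and 430 CPM and a RARα-KO ratio of -1.07. Hmgcs1 gave 226, 94.0 and 214 CPM and a ratio of -1.26 (-1.42 to -1.11). All 3 genes were lowest in RARα-KO cells, with RARα-TG between. Among the largest ratios were also Idi1 (-1.33), Sqle (-1.20), Lss (-1.16) and Msmo1 (-1.12). Scd2, a stearoyl-CoA desaturase, was the only fatty acid gene among the lower ones, at 84.5 CPM in WT and 40.1 CPM in RARα-KO cells (-1.08). The remaining 10 lower genes ran from -1.03 (Hsd17b7) to -0.78 (Mvd) and included Srebf2 and Insig1, both themselves SREBP2 targets, at -1.02 each. Srebf1 (-0.19), Insig2 (-0.20), Fasn (-0.28), Fads1 (-0.32), Scd1 (-0.48) and Acly (-0.55) did not reach 1.5-fold, and these are named after their values were seen.

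The hashtag signal of WT cells was weaker than that of RARα-KO cells in each class. In WT, 545 CTLs had at least 80% of their hashtag UMIs in the WT hashtag and 296 did not. Those numbers were 155 and 62 for CD4 T cells, and 22 and 55 for macrophages. Of RARα-KO cells in these classes, 1 macrophage fell short. The WT sterol sums above and below 80% were 582 and 527 CPM in CTLs and 531 and 470 CPM in macrophages. In CD4 T cells they were 661 and 637 CPM. Of 273 WT MC38 or stromal cells, 73 had at least 80% of their hashtag UMIs in the WT hashtag. Their sterol sum was 2867 CPM, against 1788 CPM in the other 200. All 129 RARα-KO cells of this class passed 80%. With that limit the RARα-KO log2 ratio was -1.47. T cell markers summed to 35.5, 117 and 419 CPM over this class in WT, RARα-KO and RARα-TG tumours. Without cells holding a Cd3 UMI the ratio was -1.01. The RARα-KO level is also uneven: 5 of 129 cells held 24.3% of the sterol UMIs, against 8.85% in 5 of 273 WT cells, and without the 5 richest cells of each genotype the levels were 846 and 2008 CPM.

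In macrophages, RARα-KO cells held 2.37-fold less sterol synthesis RNA than WT cells, with a log2 ratio of -1.24 (-1.51 to -0.97) on 195 and 283 UMIs. Few genes could be compared at that depth: 2 of 8 were lower and 0 were higher, against 6.27% lower and 7.54% higher among all 3556 genes compared. The median was -0.48 over the listed genes and close to 0 over all genes compared. Fdps stood at 85.0, 14.9 and 175 CPM in WT, RARα-KO and RARα-TG macrophages, with a RARα-KO log2 ratio of -2.51 (-3.48 to -1.63), the largest Fdps ratio of the 4 classes. Srebf2 gave 57.3, 20.2 and 77.2 CPM and a ratio of -1.50 (-2.40 to -0.64). Acly (-0.01), Ebp (-0.47), Insig1 (-0.49) and Pmvk (-0.82) did not pass.

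Macrophages held more of the efflux pumps than CTLs did. Of 26 listed genes compared in WT, 3 were higher in macrophages (Abca1, Abcg1 and Insig1) and 6 were lower (Acat2, Sc5d, Fasn, Scap, Insig2 and Stard4), against 14.4% higher and 35.8% lower among all 8036 genes compared. In RARα-KO, 3 of 26 were higher (Abca1, Abcg1 and Insig1) and 15 were lower, against 15.2% and 41.3% of 8784. Insig1 stood at 64.2 CPM in WT macrophages and 22.1 CPM in WT CTLs, a log2 ratio of 1.54 (0.97 to 2.08). Abca1, which loads cholesterol onto apolipoprotein A-I, had 68 UMIs (118 CPM) in WT macrophages and 0 UMIs in WT CTLs, where the Poisson interval reached up to 0.658 CPM. Between genotypes Abca1 stood at 118, 129 and 102 CPM and Abcg1 at 66.0, 93.7 and 32.5 CPM in WT, RARα-KO and RARα-TG macrophages. Neither differed by 1.5-fold with an interval clear of 0 between RARα-KO and WT, at 0.13 (-0.31 to 0.58) and 0.51 (-0.06 to 1.10). T cell markers summed to 226, 1048 and 215 CPM in WT, RARα-KO and RARα-TG macrophages, while macrophage markers summed to 29489, 18079 and 31010 CPM with 13 of 13 seen. Without macrophages holding a Cd3 UMI (69 WT and 109 RARα-KO cells remained) the sterol ratio was -1.32 and the efflux ratio 0.30.

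Dendritic cells were also lower in RARα-KO tumours, on few cells, with a sterol sum of 1402 CPM in 21 WT cells and 649 CPM in 25 RARα-KO cells, a log2 ratio of -1.11 (-1.40 to -0.83). Set side by side over CTLs, CD4 T cells, macrophages and MC38 or stromal cells, Fdps was called lower in RARα-KO cells in all 4 classes, and Hmgcs1, Idi1, Cyp51 and Srebf2 in 3 of 4. Within the CD4 T cells, Fdps was not called lower among those with a Foxp3 UMI, at -0.06 (-0.78 to 0.64). All 33 genes could be compared in at least 1 of these classes, and 21 were lower in at least 1, against 9.33% of the 11216 genes compared in at least 1 class. Of the 29 compared in at least 2 classes, 11 were lower in at least 2, against 1.06% of 8802 genes. Genes with few UMIs were compared in fewer classes and had fewer chances of a call. The 12 that were lower in none were Ebp, Dhcr7, Acly, Acaca, Fasn, Scd1, Fads2, Srebf1, Scap, Insig2, Abca1 and Abcg1. Abcg1 was higher in both T cell classes and could not be compared in MC38 or stromal cells, which held 2 WT and 1 RARα-KO UMIs of it.

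T cell subsets differed in their sterol level, and genotypes filled these subsets unequally. The cluster led by Ccl5 and Serpine2 held 504 of the 1178 RARα-KO CTLs, 82 WT CTLs and 0 RARα-TG CTLs, while the cluster led by Gzmf and Gzmd held 320 WT, 96 RARα-KO and 2 RARα-TG CTLs. The clusters were formed without the listed genes. Comparing genotypes within each of the 10 T cell clusters with at least 20 cells of both, the RARα-KO to WT ratio of the sterol sum was negative in all 10, and its interval lay below 0 in 6. The ratios ran from -1.36 to -0.10 with a median of -0.36.

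The largest within-cluster ratio belonged to the CD4 cluster led by the TNF family ligands Tnfsf8 and Tnfsf11 and the cytokine Il13, with 810 CPM in WT cells, 315 CPM in RARα-KO cells and a ratio of -1.36. The cluster led by the chemokines Xcl1 and Ccl1 gave 377 and 258 CPM (-0.55), and the Foxp3 cluster gave 553 and 399 CPM (-0.47). The cluster led by granzymes Gzmf and Gzmd was high in both genotypes, at 652 and 529 CPM (-0.30), and the cluster led by Ccl5 and Serpine2 was low in both, at 412 and 336 CPM (-0.29). Levels thus differed more between the Gzmf and Ccl5 clusters of 1 genotype than between the genotypes within either cluster. Without the Gzmf cluster the ratio over CTLs was -0.45, and without the Ccl5 cluster -0.47. Smallest was the cluster led by Klra7 and Klra1, at -0.10. The cluster led by Rln3, Pcsk1 and Klrg1 was filled almost wholly by RARα-TG cells (266 of 278), which stood at 794 CPM (742 to 849). RARα-TG and WT cells of the Tnfsf8 and Tnfsf11 cluster stood at a like level, 805 and 810 CPM.

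**Figure D4:**
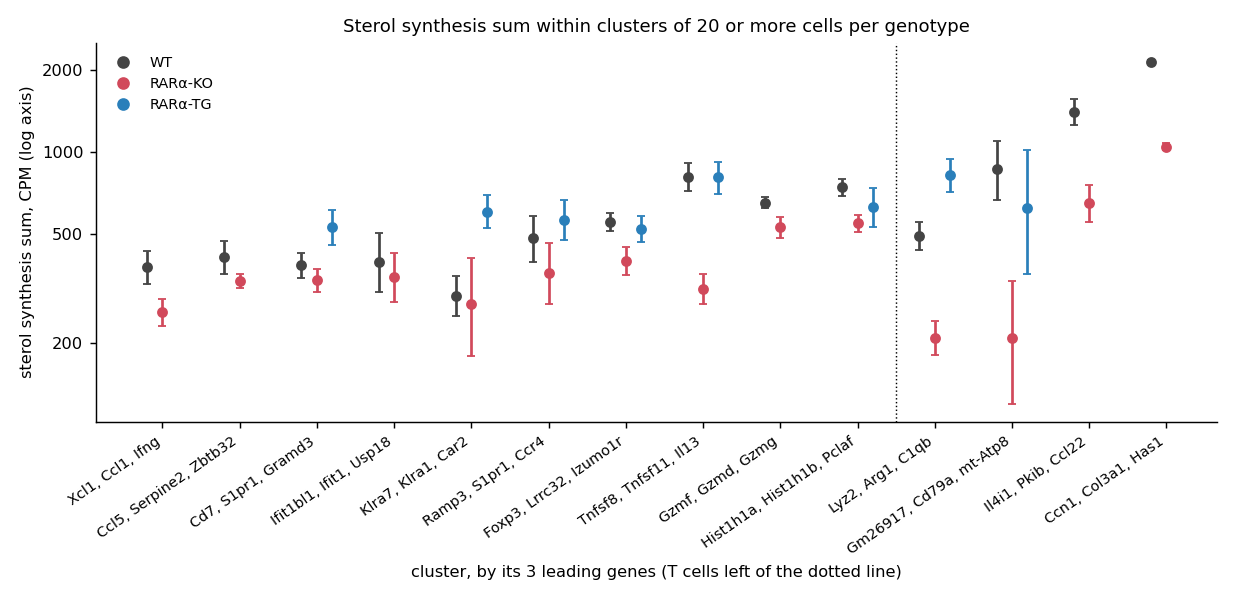
Sterol synthesis sum in CPM (log axis) within each cluster, named by its 3 leading genes, for genotypes with at least 20 cells, with exact Poisson 95% intervals. In each of the 10 T cell clusters left of the dotted line the RARα-KO point lay below the WT point, with the widest gap at Tnfsf8, Tnfsf11 and Il13.

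Cells of 1 clonotype descend from 1 T cell, so expanded clonotypes can weigh on a sum. Among clonotypes with at least 20 CTLs, the sterol sum ranged from 440 to 801 CPM over 9 WT clonotypes, with a median of 512 CPM. It ranged from 188 to 557 CPM over 10 RARα-KO clonotypes, with a median of 344 CPM. The ranges overlapped, and CTLs whose clonotype had 1 cell gave 479 (WT), 392 (RARα-KO) and 630 CPM (RARα-TG). The RARα-KO log2 ratio was -0.48 when every clonotype had the same weight. Clonotypes are not replicate animals.

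RARα-TG cells were compared with the same WT cells. In CTLs the sterol sum was 1.16-fold above WT, a log2 ratio of 0.21 (0.05 to 0.36), and the fatty acid sum gave 0.62 (0.32 to 0.90). Of 26 genes compared, 6 were higher and 0 were lower, against 7.67% higher and 7.79% lower among all 7890 genes compared. The median was 0.16 over the listed genes and close to 0 over all genes compared. Fasn, the fatty acid synthase, gave the largest ratio, at 20.1, 20.7 and 53.1 CPM in WT, RARα-KO and RARα-TG CTLs, a log2 ratio of 1.40 (0.78 to 1.98). Abcg1 (1.28), Acat2 (1.16), Mvk (1.14), Cyp51 (0.88) and Srebf2 (0.74) followed. These values rest on 113 cells, of which 5 held 23.8% of the sterol UMIs. Without the 5 richest cells of each genotype the sterol level was 548 CPM in RARα-TG and 545 CPM in WT CTLs, but 5 cells are a larger share of 113 than of 841. The median per cell was 468 CPM in RARα-TG and 400 CPM in WT CTLs. With T cells taken by clonotype alone the sterol ratio was -0.02. With each clonotype weighted equally the fatty acid ratio was 0.03. The genotypes also filled the clusters unequally, with 68 of the 113 RARα-TG CTLs and 179 of the 841 WT CTLs in the cluster led by Cd7 and S1pr1. Within the 6 T cell clusters with at least 20 cells of both genotypes, the RARα-TG to WT ratio of the sterol sum was negative in 3 and its interval lay above 0 in 2, and it ran from -0.24 to 1.02 with a median of 0.11. Those 2 were the Klra7 and Klra1 cluster, at 604 against 297 CPM (1.02), and the Cd7 and S1pr1 cluster, at 528 against 384 CPM (0.46).

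In CD4 T cells, where RARα-TG cells were most numerous, the sterol sum was level with WT at 0.04 (-0.11 to 0.19), and 0 of 17 genes passed in either direction, against 4.51% higher and 4.75% lower among all 5541 genes compared. Macrophages of RARα-TG tumours stood 1.67-fold above WT in sterol synthesis, at 0.74 (0.47 to 1.01), and 3 of 8 genes were higher and 0 lower against 9.32% higher and 12.7% lower among all 2221 genes compared. These were Pmvk (97.5 against 45.1 CPM), Fdps (175 against 85.0 CPM) and Cyp51 (97.5 against 52.1 CPM). Of the sterol UMIs in the 35 RARα-TG macrophages, 62.4% came from 5 cells, and without the 5 richest cells of each genotype the levels were 402 CPM in RARα-TG, 372 CPM in WT and 183 CPM in RARα-KO. The cells left out were picked by the sum itself, and 5 cells are a larger share of 35 than of 77 WT or 128 RARα-KO macrophages. These levels therefore cannot show how much of either difference rests on a few cells. The median per cell was 320, 137 and 368 CPM in WT, RARα-KO and RARα-TG macrophages. In MC38 or stromal cells the RARα-TG ratio was -0.53 (-0.66 to -0.41), from 19 cells of which 5 held 70.6% of the sterol UMIs.

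Cycling cells, defined by at least 0.3% of their UMIs in 40 cell cycle genes, held more sterol synthesis RNA than non-cycling cells among CTLs of each genotype. In WT CTLs the sum was 751 CPM in 71 cycling and 531 CPM in 770 non-cycling cells, a log2 ratio of 0.50 (0.38 to 0.62). RARα-KO CTLs gave 544 and 351 CPM, at 0.63 (0.51 to 0.75), and RARα-TG CTLs 852 and 620 CPM, at 0.46 (0.08 to 0.82) on 9 cycling cells, where 0 of 3 genes passed against 9.3% higher and 9.52% lower among 1764. Of the 24 genes compared in WT CTLs, 8 were higher and 0 lower, against 12.8% higher and 11.9% lower among all 7660 genes compared. In RARα-KO CTLs 8 of 25 were higher and 1 was lower, against 19.5% higher and 9.63% lower among 8341. Cycling CTLs were deeper, with a median of 12530 against 5452 UMIs in WT, and 35 WT and 45 RARα-KO cells lay within 1.5-fold of the limit.

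CD4 T cells held 14 WT, 11 RARα-KO and 10 RARα-TG cycling cells. The WT sum was 704 CPM in cycling and 648 CPM in non-cycling cells, a log2 ratio of 0.12 (-0.21 to 0.44), and 0 of 8 genes were higher and 1 lower, against 8.68% higher and 11.2% lower among 3307 genes. RARα-TG cells gave 601 and 681 CPM, at -0.18 (-0.56 to 0.17), with 0 of 9 genes higher and 1 lower, against 8.46% and 10.4% of 3723. RARα-KO cells gave 538 and 352 CPM, at 0.61 (0.27 to 0.94), with 2 of 5 genes higher and 0 lower, against 12.9% and 14.1% of 3900. The sum was thus higher in cycling CD4 T cells of RARα-KO tumours, and the intervals of the other two genotypes held 0.

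Fdps, Fdft1, Idi1, Hsd17b7 and Stard4 were higher in cycling CTLs of both WT and RARα-KO tumours. Fdft1, the squalene synthase, stood at 45.8 against 21.96 CPM in WT and 42.8 against 18.8 CPM in RARα-KO CTLs, so cycling cells of both genotypes reached a like level. Stard4, a carrier of free sterol between membranes, stood at 57.8 against 30.3 CPM in WT (0.93) and 57.0 against 14.3 CPM in RARα-KO (1.99, 1.54 to 2.44). Its cycling levels were thus alike, and its non-cycling level was lower in RARα-KO. Hsd17b7 had the largest ratio in WT, at 1.77. Abcg1 was lower in cycling RARα-KO CTLs, at 6.8 against 18.2 CPM, a log2 ratio of -1.43 (-2.59 to -0.46). The RARα-KO to WT ratio of the sterol sum was -0.47 (-0.62 to -0.31) among cycling and -0.60 (-0.68 to -0.52) among non-cycling CTLs, so the genotypes differed in both.

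In MC38 or stromal cells of WT tumours, cycling cells stood at 2629 CPM and non-cycling cells at 1802 CPM, a log2 ratio of 0.55 (0.50 to 0.59). There 9 of 31 genes were higher and 0 lower, against 10.6% higher and 9.95% lower among all 9138 genes compared. Acat2 led at 94.6 against 39.6 CPM (1.26), followed by Stard4 (1.13). In RARα-KO tumours the values were 1535 and 715 CPM, with a ratio of 1.10 (1.01 to 1.19) and 18 of 29 genes higher and 0 lower, against 9.47% higher and 9.44% lower among 7487. That ratio rests on 20 cells with 0.3 to 0.6% of their UMIs in cell cycle genes, which stood at 2344 CPM, while the 18 cells at 0.6% or more stood at 950 CPM. With the limit at 0.6% the ratio was -0.18, with 1 gene higher and 5 lower. The share over all genes was not computed at that limit.

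**Figure D5:**
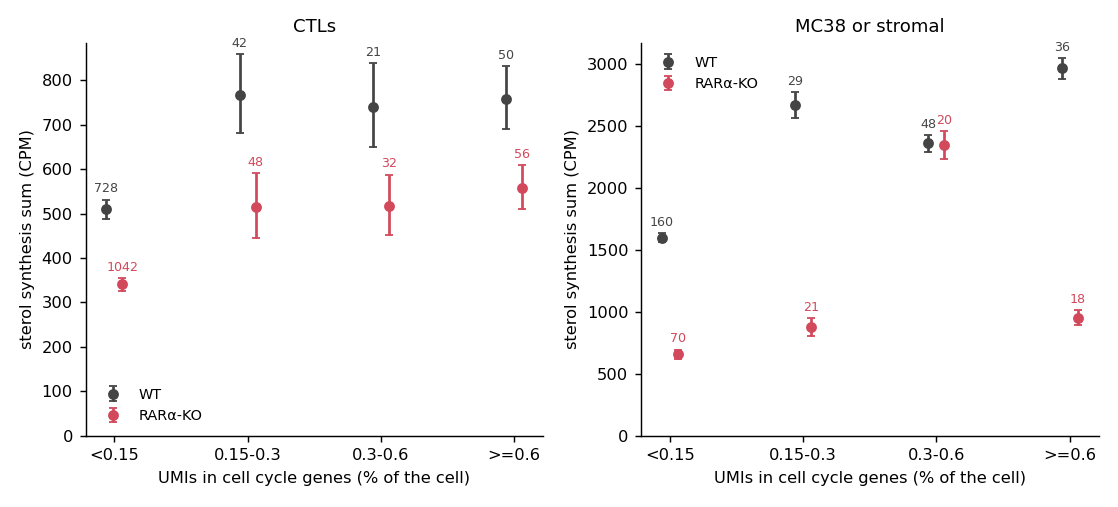
Sterol synthesis sum in CPM by the share of a cell's UMIs in 40 cell cycle genes, for CTLs (left) and MC38 or stromal cells (right) of WT and RARα-KO tumours, with exact Poisson 95% intervals and the number of cells above each point. CTLs stepped up at 0.15% and stayed level, with RARα-KO below WT throughout, and the RARα-KO MC38 or stromal cells peaked at 0.3 to 0.6%.

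Sterol synthesis genes and desaturases were both higher in MC38 or stromal cells than in CTLs of the same tumours, and the largest ratios in WT were those of Scd1, Fads2 and Fads1. In WT, 23 of 31 genes were higher and 2 lower in MC38 or stromal cells, against 36.7% higher and 25.3% lower among all 10448 genes compared. The sterol ratio was 1.92 (1.86 to 1.97) in WT tumours, 1.45 (1.38 to 1.52) in RARα-KO tumours and 1.18 (0.99 to 1.37) in RARα-TG tumours. In RARα-KO, 20 of 31 genes were higher and 3 lower, against 34.6% and 26.9% of all genes, and in RARα-TG 6 of 10 were higher and 1 lower, against 24.2% and 28.6%. Fdps stood at 663 against 74.5 CPM in WT (3.15), Mvd at 43.4 against 5.5 CPM (2.97) and Msmo1 at 206 against 28.7 CPM (2.84). Insig1 (2.74) and Sqle (2.58) followed, and Ebp was lower, at 58.3 against 90.2 CPM (-0.63), as was Scap (-0.85).

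The neighbouring desaturase genes on chromosome 19 split between cell classes. Scd1 (44394450 to 44407709) had 510 UMIs in WT MC38 or stromal cells and 2 UMIs in WT CTLs, a log2 ratio of 7.37 (5.51 to 10.42), whereas Scd2 (44293676 to 44306864) had 731 and 91 UMIs, at 84.5 and 16.2 CPM, a ratio of 2.38 (2.07 to 2.71) that lay below those of Fdps, Mvd, Msmo1, Insig1 and Sqle. The pair of Fads2 (10062765 to 10101503) and Fads1 (10182877 to 10196874) behaved likewise. Fads2 had 286 and 2 UMIs, a log2 ratio of 6.54 (4.67 to 9.59), and Fads1 had 511 and 35 UMIs (3.24). Scd2 and Fads1 UMIs were thus found in CTLs of every genotype, whereas Scd1 and Fads2 were at 0 UMIs in RARα-KO and RARα-TG CTLs and in CD4 T cells of every genotype. Scd1 and Scd2 are close paralogues, so the split of their reads is uncertain.

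A second list of 21 lipid genes held none of the 33. Its share of genes lower in RARα-KO was smaller in CTLs, CD4 T cells and MC38 or stromal cells. In macrophages its called genes went the other way. In CTLs 0 of 18 were higher and 1 was lower (Lpin1, -0.85), against 4.7% higher and 4.35% lower among all genes compared. In CD4 T cells 0 of 11 were higher and 1 was lower (Fabp5, a fatty acid carrier, -1.07), against 3.35% and 5.39%. In MC38 or stromal cells, of 20 compared, Mylip was higher (0.71) and Elovl6 (-0.84) and Lpin1 (-0.71) were lower. The shares over all genes were 3.94% higher and 2.26% lower. In macrophages 4 of 7 were higher and 0 lower, against 7.54% higher and 6.27% lower among all genes compared. The higher genes were Acsl1 (1.74), Fabp5 (1.38), Mylip (0.95) and Soat1 (0.64), the last of which esterifies cholesterol for storage. In RARα-TG CTLs 3 of 17 were higher and 0 lower, against 7.67% and 7.79%. These were the fatty acid elongases Elovl6 (2.14) and Elovl5 (1.05) and the SREBP protease gene Mbtps1 (1.12). Cycling WT CTLs had higher Fabp5 (1.48), Lbr (1.22) and Tmem97 (1.19) and lower Ggps1 (-0.96) and Nr1h2 (-0.64), of 15 compared. Among all genes 12.8% were higher and 11.9% lower there.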

How the data were processed

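The authors aligned reads to mm10 with Cell Ranger 6.1.0, as the submitters' processing notes and methods name it (the matrix header names another version), and deposited UMI counts for all 730308 barcodes. Values are counts per gene and barcode, with 3 hashtag features. Cells were called again from 46394322 gene UMIs: an expected number of 3000 cells set the upper limit, and fainter barcodes with at least 500 UMIs were compared with the pool of barcodes ranked 45000 to 90000 by 1000 simulations at a false discovery rate of 0.01. The 5585 cells held 96.4% of all gene UMIs.

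Hashtags were assigned with HTODemux (Seurat 5.3.0, R 4.3.3, quantile 0.99), and 426 hashtag doublets and 234 cells without a hashtag were left out. Doublets within a genotype were not removed. Cells were clustered in scanpy 1.11.5 (2000 variable genes, 30 principal components, 15 neighbours, resolution 1) without the 33 genes, the 21 other lipid genes and T cell receptor genes. T cell clusters had clonotypes in over 50% of cells, from the deposited contig table with its UMI counts. Macrophage-like and MC38 or stromal clusters were named from marker lists. CPM, Poisson and binomial intervals at 95% used Python 3.11.15, numpy 2.4.6, scipy 1.17.1 and pandas 2.3.3, with figures from matplotlib 3.10.9. The intervals were tested on simulated data. With 1 sample per genotype, no test between animals was possible. For the estimate of a ratio, a count of 0 was set to 3 UMIs.

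The 33 genes and all lists were chosen with earlier results of these data known. In each comparison at most the 8 called genes with the largest log2 ratio in each direction were named with values, and others are marked where named. Positions come from RefSeq GRCm38.p6. Alternatives were other cell definitions, a limit of 20 UMIs, cells thinned to 1000 UMIs, other totals and weights, left-out clusters, cells or genes, a hashtag share of 80% and cycling limits of 0.15 and 0.6%.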

Additional observations from a re-analysis of the deposited data

Results flagged for a closer look

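The RARα-TG to WT log2 ratio of the sterol synthesis sum pointed in opposite directions in different cells of the same tumours. It was 0.21 (0.05 to 0.36) in CTLs and 0.74 (0.47 to 1.01) in macrophages, and -0.53 (-0.66 to -0.41) in MC38 or stromal cells. With 1 sample per genotype the difference was not tested. In the RARα-TG cells of these classes 5 cells held 23.8%, 62.4% and 70.6% of the sterol UMIs in the same order.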

How the results depend on the processing

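No paired analysis was possible because each genotype is 1 sample. Over the sums, 147 alternative values stayed within the counting interval, 46 left it without changing direction and 3 left it and changed direction. Over the named genes these numbers were 805, 163 and 17, and over counts of called genes 52 stayed within 1.5 times and 28 did not. Where an interval held 0, a value within it could also change sign. The RARα-TG sterol ratio in CD4 T cells (0.04) ran down to -0.095. The cycling fatty acid ratio in RARα-TG CTLs (0.57) ran down to -0.096. For counts of called genes under an alternative, neither the number of genes compared nor the share over all genes was recorded. Those counts therefore cannot be set against all genes. The cause was not tested unless stated.

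With T cells taken by clonotype alone, the sterol log2 ratios in CTLs were -0.65 (RARα-KO to WT) and -0.018 (RARα-TG, reversed), cycling against non-cycling 0.23 in WT and 0.98 in RARα-KO, and MC38 or stromal cells against CTLs 1.72 in WT and 1.34 in RARα-KO. With clonotypes weighted equally, CTL ratios were -0.48 for sterol and -0.37 for fatty acid genes (RARα-KO), 0.029 for fatty acid genes (RARα-TG) and 0.72 for cycling WT cells. Without the cluster led by Gzmd, Gzme and Gzmf they were -0.45 and -0.36 (RARα-KO), 0.40 (RARα-TG sterol) and 0.91 (cycling WT). Without the cluster led by Ccl5 and Serpine2, an alternative chosen after seeing the data, the RARα-KO sterol ratio was -0.47. Without the gene with the most UMIs, RARα-KO ratios were -0.72 (CTL sterol), -0.30 (CTL fatty acid) and -1.01 (CD4 sterol), cycling fatty acid ratios 0.81 in WT and 0.77 in RARα-KO CTLs, and MC38 or stromal against CTL ratios 1.59 (WT), 1.05 (RARα-KO) and 0.82 (RARα-TG).

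The mean of per-cell CPM gave -1.08 for RARα-KO MC38 or stromal cells, 0.63 for cycling WT CTLs and 2.03 for WT MC38 or stromal cells against CTLs. An 80% hashtag share gave -1.47 for RARα-KO MC38 or stromal cells, and 2.30 in WT and 0.92 in RARα-TG against CTLs. Without the 5% of cells with the most UMIs, cycling WT CTLs gave 0.63, and MC38 or stromal cells against CTLs 1.58 in RARα-KO and 0.98 in RARα-TG. A total without mitochondrial, ribosomal protein and T cell receptor genes gave 1.84 in WT.

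Cells thinned to 1000 UMIs gave sterol ratios of -0.79 (RARα-KO macrophages), 1.10 (RARα-TG macrophages), -1.14 (RARα-KO MC38 or stromal), 0.67 (cycling WT CTLs), -0.082 (cycling RARα-TG CTLs, reversed) and, against CTLs, 1.998 in WT and 1.52 in RARα-TG MC38 or stromal cells. The fatty acid ratio was 0.25 in RARα-TG CTLs and 1.02 in cycling WT CTLs. Thinning leaves fewer UMIs and so fewer genes to compare. RARα-KO to WT, it left 0 genes higher and 7 lower in CTLs, 0 and 0 in CD4 T cells, 0 lower in macrophages and 4 lower in MC38 or stromal cells. RARα-TG to WT, it left 1 gene higher in CTLs and 0 in macrophages. For cycling cells it left 0 higher in WT and 0 higher and 0 lower in RARα-KO CTLs, and 1 higher in WT and 0 in RARα-KO MC38 or stromal cells. Against CTLs it left 6, 1 and 0 higher and 0, 0 and 0 lower, in the order WT, RARα-KO, RARα-TG. Named genes reversed by thinning were Srebf2 in RARα-KO macrophages (1.30), Tm7sf2 in RARα-KO MC38 or stromal cells (0.093), Pmvk (-0.76), Mvd (-0.34) and Sqle (-0.078) in cycling RARα-KO MC38 or stromal cells, and, against CTLs, Acly in WT (-0.25) and Acat2 (-0.54) and Srebf1 (0.44) in RARα-KO.

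With a limit of 20 UMIs, 1 gene was lower in RARα-TG CD4 T cells, 7 were lower in RARα-KO and 5 higher in RARα-TG macrophages, 1 was lower in cycling WT and 1 higher in cycling RARα-TG CTLs, and 11 were higher in RARα-TG MC38 or stromal cells against CTLs. All alternatives for cycling MC38 or stromal cells were chosen after seeing the data. In WT the ratio was 0.72 at a cycling limit of 0.15%, 0.60 at 0.6%, 0.72 thinned, 0.64 by per-cell mean, 0.39 without the gene with the most UMIs and 0.28 at an 80% hashtag share. In RARα-KO a limit of 0.6% gave -0.18 (reversed), with 1 gene higher and 5 lower, and 0.15% gave 1 lower. Reversed there were Idi1 (-0.63), Hmgcs1 (-0.49), Fdps (-0.39), Mvd (-0.32), Nsdhl (-0.31), Cyp51 (-0.28), Fdft1 (-0.12), Fads2 (-0.093) and Msmo1 (-0.084).

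The RARα-KO to WT sterol ratio remained negative in CTLs (-0.72 to -0.45), CD4 T cells (-1.01 to -0.79), macrophages (-1.45 to -0.79) and MC38 or stromal cells (-1.47 to -1.003) under every alternative run for it. Depth limits single genes in macrophages, where 8 of 33 could be compared, and in RARα-TG cells.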

Other observations

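The cluster led by Ly6d and Siglech, which is not among the named classes of the report, held 49 cells with a hashtag and a sterol synthesis level of 1419, 664 and 2444 CPM (27, 9 and 13 cells of WT, RARα-KO and RARα-TG). Siglech marks plasmacytoid dendritic cells among others. A cluster led by Gm26917 and mitochondrial transcripts gave 862, 208 and 623 CPM in WT, RARα-KO and RARα-TG cells. MC38 or stromal cells without a hashtag (86 cells) stood at 1402 CPM, between the WT and RARα-KO levels of that class. Neutrophil-like cells held 4, 10 and 5 sterol synthesis UMIs in 10 WT, 37 RARα-KO and 10 RARα-TG cells, too few to compare.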
